A study of Glycine max with 63 samples.

Results

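The raffinose family oligosaccharides of soybean seed are built from sucrose by a short pathway, and 6 genes of that pathway were followed here among the 55899 named rows of each table. They were taken by identifier: inositol phosphate synthase MIPS1 (GLYMA_11G238800), the galactinol synthases GolS1A (GLYMA_03G222000) and GolS1B (GLYMA_19G219100), the raffinose synthases RS2 (GLYMA_06G179200) and RS3 (GLYMA_05G003900), and a stachyose synthase (GLYMA_19G217700), written STS below. All 6 passed the filter on low counts in the field and in the greenhouse models.

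As background, MIPS turns glucose 6-phosphate into inositol phosphate, the source of myo-inositol for both phytic acid and galactinol. Galactinol synthase joins galactose to myo-inositol, raffinose synthase moves that galactose from galactinol onto sucrose, and stachyose synthase adds a further galactose to raffinose. These sugars gather in legume seeds late in filling and during drying, where they are linked with desiccation tolerance and storability, and they are poorly digested by animals with a simple stomach. In soybean, mutations of RS2 lower seed raffinose and stachyose, and a mutation of MIPS1 lowers phytic acid and these sugars together.

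The study sequenced RNA from soybean seeds that carried Arabidopsis genes for seed oil: WRI1, which switches on fatty acid synthesis as a transcription factor, and DGAT1, the acyltransferase of the last step to triacylglycerol. All groups share the background of the cultivar Thorne, which was the control (WT). In the field, WT, W-1 and WD-1 seeds were taken at R5, R5/6 and R6, which are stages of seed filling, and a library pooled 4 genotyped seeds of a plot. In the greenhouse, a library came from 1 peeled embryo of 1 plant, and the labels give WT, WD-1 and WD-2 with ages of 24, 27, 30 and 33 DAP, or days from pollination. There were 9 groups in the field and 12 in the greenhouse, each with 3 libraries from separate plots or plants. The lines are described as homozygous transgenic events. The field protocol names WD-1 and WD-2 while the field sample titles name W-1 and WD-1, and the titles were followed. Which promoter drives the transgenes is not given in the sources used here. In such bulk samples, fewer cells of a type and less RNA per cell cannot be told apart.

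The greenhouse tables also carry a line (Wt, G or R) and a time (T2 to T5) in their names, and these disagree with the labels. The count of the AtWRI1 transgene went against the labelled genotype in 13 of 36 libraries and against the named line in 1 of 36. The 12 libraries named Wt held at most 7 AtWRI1 counts each, the 12 named G held 0 to 319.6 CPM (counts scaled to a total of 1e6 in each library) with a median of 273.2, and the 12 named R held 38.99 to 323.6 CPM. The exception, G T5 replicate 2, held 0 counts of both transgenes. In the field, AtWRI1 was at 0 CPM in 8 of 9 WT libraries and at 0.398 in the other, and at 1.86 to 249.6 CPM in W-1 and WD-1. Greenhouse results are therefore given by the named groups, with those of the labelled groups beside them at the end. The names G and R are not equated with WD-1 and WD-2, nor T2 to T5 with days.

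**Figure D1:**
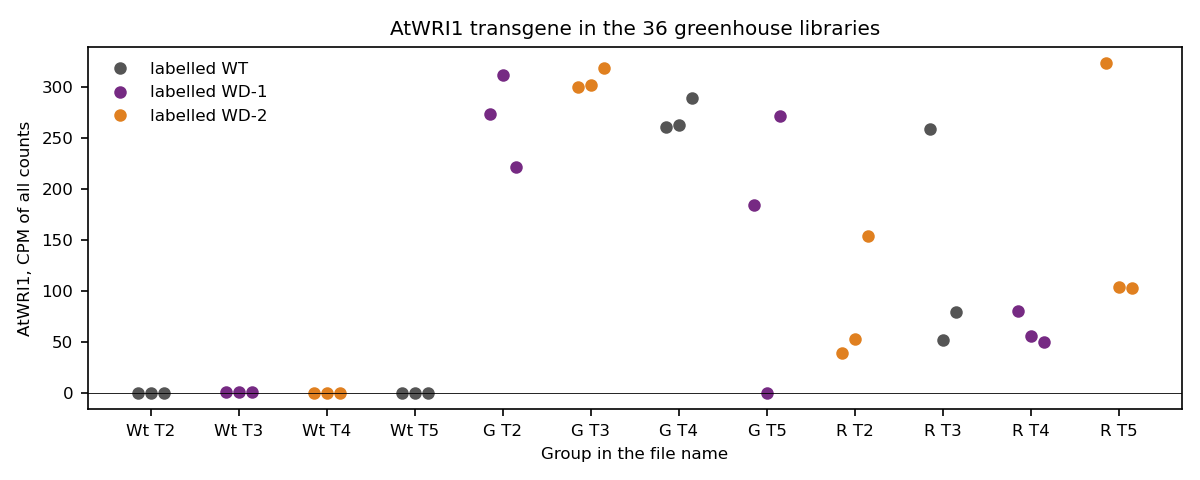
AtWRI1 in CPM of all counts (vertical axis) for each of the 36 greenhouse libraries, placed by the line and time in the table's name and coloured by the labelled genotype. Libraries named Wt lie at or near 0 whatever their label, while libraries labelled WT lie at or near 0 in the Wt columns and reach 289.3 CPM in the G and R columns.

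Total counts ran from 1.17 M to 36.2 M in the field, with 10 of 27 libraries under 10 M, and from 3.02 M to 23.6 M in the greenhouse, with 5 of 36 under 10 M (M, counts in units of 1e6). A count of 0 allows up to 3 counts, or 0.0828 to 2.56 CPM in a field library and 0.127 to 0.995 CPM in a greenhouse library. Levels below are TMM-normalized CPM (CPM scaled by a factor per library that aligns the bulk of genes) and are compared within a gene only, since gene lengths were not available. In the R libraries 8 rows of the tables took 7.48% to 80.3% of all counts, against 4.04% to 32.5% in Wt and 2.24% to 32.6% in G. With scaling by total counts instead of TMM, the median of all genes in R against Wt shifted by -1.18 on the log2 scale, so the direction of each R result below is relative to the bulk of genes. Values with those 8 rows left out are given where they bear on a result.

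A gene is said to pass where its adjusted p, from edgeR's quasi-likelihood test, was under the threshold of 0.05. Counted over the 6 genes, none passed in a comparison of a field line with WT. None of the 6 passed in W-1 or WD-1 averaged over stages, where 2.53% and 3.05% of all 38914 genes tested did. None passed at R5 (0.0385% and 0.177% of all genes), R5/6 (0.123% and 1.7%) or R6 (4.44% and 3.24%). The direct comparison of WD-1 with W-1 over stages also gave 0 of 6 (0.555% of all genes). DESeq2 gave 0 in each of these comparisons too. At an unadjusted edgeR p under 0.05, W-1 and WD-1 had 1 and 1 of 6 over stages and 3 and 2 at R5. They had 0 and 1 at R5/6 and 1 and 2 at R6, and WD-1 against W-1 had 1. The share of all genes under that unadjusted p was not counted, here or below. Such counts are therefore not comparable with the shares of all genes, which are at the adjusted threshold. The 95% interval of a single difference is wide at this depth and number of libraries, for STS at R6 0.25 to 2.11 for W-1 and 0.47 to 2.32 for WD-1.

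Change with stage was more common among all genes. Between R5 and R6, 1 of 6 passed in WT, GolS1A, where 33% of all genes did. In W-1 3 of 6 passed, STS higher and both galactinol synthases lower, against 41.1% of all genes. In WD-1 STS alone of the 6 passed, against 35.6%. The median log2 fold change of the 6 was -0.24, -0.48 and 0.33, beside -0.07 for all genes in each genotype. For the difference of the stage effects from that of WT, 1 of 6 passed in W-1 (STS, 1.69% of all genes) and 0 of 6 in WD-1 (1.22%), where 3 had an unadjusted p under 0.05 and DESeq2 called 1, STS.

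In greenhouse Wt embryos 2 of 6 passed between T2 and T5, MIPS1 lower and GolS1B higher, against 28% of all 34548 genes tested. By single steps 2 of 6 passed from T2 to T3 (the same genes, 12.3% of all genes), 1 from T3 to T4 (RS3, 2.12%) and 1 from T4 to T5 (RS3, 0.00868%, or 3 genes). From T2 to T5, 3 of 6 passed in G (24.6% of all genes) and 0 of 6 in R (14.6%). MIPS1 in R passed by DESeq2, at -0.41 (adjusted p = 0.0292), and the unadjusted p was under 0.05 for MIPS1 and RS3.

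Against Wt over times, 5 of 6 passed in G, STS and MIPS1 higher and RS2, RS3 and GolS1B lower, where 46.5% of all genes did. In R 3 of 6 passed, STS and MIPS1 higher and GolS1B lower, where 60.6% of all genes did. Of the genes called in R, 46% were higher, and 3.48% were by total counts. By time, G had 1 of 6 at T2 (10.1% of all genes), 1 at T3 (21.3%), 5 at T4 (27.7%) and 3 at T5 (32.5%). R had 2 at T2 (20%), 2 at T3 (29.4%), 5 at T4 (40.9%) and 3 at T5 (35%). T4 was thus the time with the most calls in both lines, which share the Wt libraries there, and GolS1A was the gene that passed in neither. The median of the 6 at T4 was -0.58 in G and -0.96 in R, beside -0.02 and -0.06 for all genes. The effect at T5 differed from that at T2 for 1 of 6 in G (RS3, 7.25% of all genes) and 0 of 6 in R (3.38%), where DESeq2 called 0 and 3 had an unadjusted p under 0.05. Between R and G, 1 of 6 differed over times, MIPS1, against 37.5% of all genes. The test could not decide on GolS1B there (SE 4507), since groups of both lines held 0 counts of it.

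**Figure D2:**
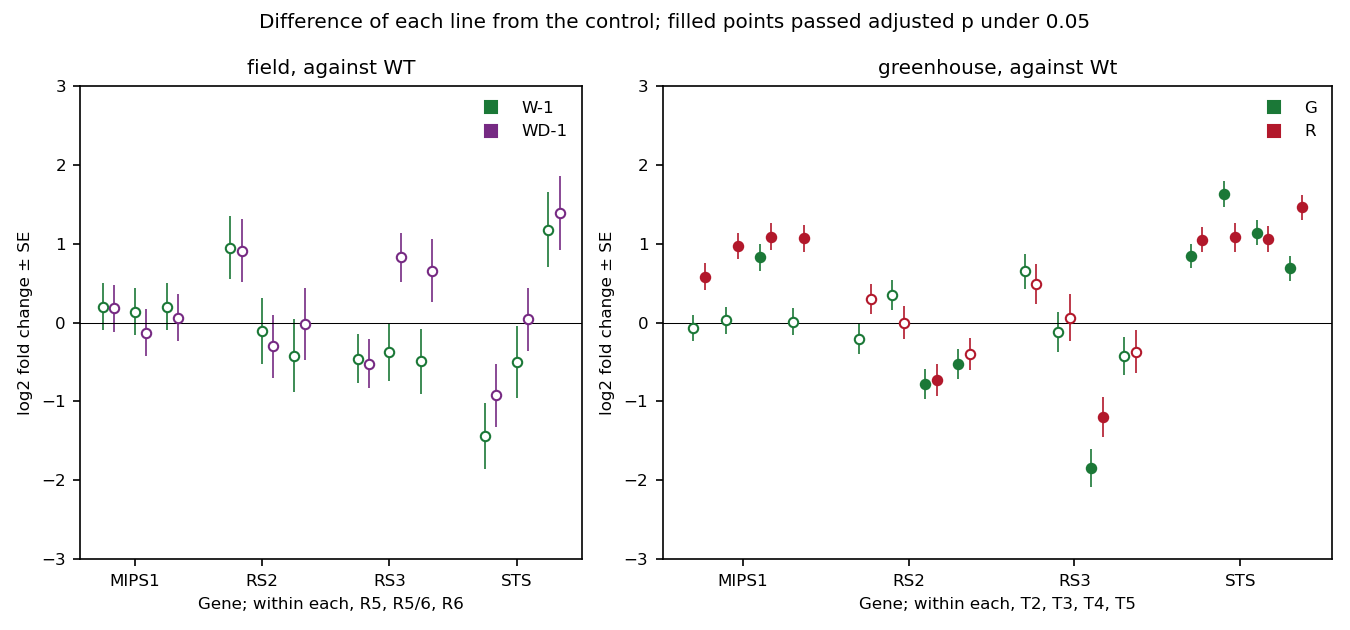
Log2 fold change ± SE of each line against the control (vertical axis) for MIPS1, RS2, RS3 and STS, by stage in the field and by time in the greenhouse, with filled points past an adjusted p of 0.05 and open points not. In the greenhouse all 8 STS points are filled and above 0, and the RS2 and RS3 points at T4 are filled and below 0, while no field point is filled.

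MIPS1 was read at 326.3 TMM-normalized CPM or more in every library. In the greenhouse it was lower at T5 than at T2 in Wt and in G, and it was higher in R than in Wt at all 4 times. In Wt it went from 697.8 ± 2.06 at T2 (mean ± SD, n = 3 libraries, as for all means below) to 449 ± 10.6 at T3, 401.1 ± 45.9 at T4 and 386.1 ± 24.3 at T5. The 3 Wt libraries at T2, at 700.2, 696.4 and 696.8, lay above all later Wt libraries. The fall from T2 to T3 passed the threshold (log2 fold change -0.64, SE 0.17, adjusted p = 0.00855), while the steps from T3 to T4 (-0.16, adjusted p = 0.752) and from T4 to T5 (-0.05, adjusted p = 1) did not. From T2 to T5 the change was -0.85 in Wt (SE 0.17, adjusted p = 0.000195), -0.77 in G (SE 0.17, adjusted p = 0.000684) and -0.36 in R (SE 0.17, adjusted p = 0.138). The R change did not differ from that of Wt past the threshold (difference 0.49, SE 0.23, adjusted p = 0.296).

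The R libraries of MIPS1 held 1191, 1012 and 931 at T2, 726.8, 966 and 941.1 at T3, 835.4, 848.5 and 872.3 at T4, and 787.4, 869.3 and 780.4 at T5. Each R library lay above all 3 Wt libraries of its time. The log2 fold change was 0.58 (SE 0.17, adjusted p = 0.0116) at T2, 0.97 (SE 0.17, adjusted p = 4.14e-05) at T3, 1.09 (SE 0.17, adjusted p = 3.77e-06) at T4 and 1.07 (SE 0.17, adjusted p = 5.6e-06) at T5. The T2 call was lost without R T2 replicate 1 (0.50, adjusted p = 0.0655). Over times MIPS1 was 1.90-fold higher in R than in Wt (0.93, SE 0.08, adjusted p = 1.93e-11) and 1.65-fold higher than in G (0.73, SE 0.08, adjusted p = 3.75e-08). By total counts both turned, to -0.25 (adjusted p = 0.186; at T2 -0.98, adjusted p = 0.0144) against Wt and -0.59 (adjusted p = 0.00268) against G, and with the 8 rows also left out they were 1.10 (adjusted p = 7.28e-14) and 0.79 (adjusted p = 2.52e-09).

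In G, MIPS1 departed from Wt at T4. G held 644.8, 717.7 and 780.6 there, against 363.1, 387.9 and 452.1 in Wt, and the groups did not overlap (log2 fold change 0.83, SE 0.17, adjusted p = 0.000232). By total counts this was 0.87 (adjusted p = 0.156). At T2, T3 and T5 the G values were -0.07, 0.03 and 0.01, and none passed. The mean over times, 0.20 (SE 0.08, adjusted p = 0.0448), was lost in 18 of 24 fits without 1 library.

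In the field MIPS1 stood at 613, 1200 and 830.4 in WT at R5, at 2005, 1585 and 1664 at R5/6, and at 1367, 1311 and 1630 at R6. All 3 genotypes had their highest mean at R5/6, of 1751 ± 223 in WT, 1931 ± 394 for W-1 and 1603 ± 346 for WD-1. From R5 to R6 the log2 fold changes were 0.70 for WT (SE 0.30, adjusted p = 0.077), 0.71 for W-1 (SE 0.30, adjusted p = 0.0641) and 0.59 for WD-1 (SE 0.30, adjusted p = 0.132). By DESeq2 the WT and W-1 changes passed, with adjusted p of 0.0223 and 0.0435, and by total counts the values of WT, W-1 and WD-1 were -0.32, -0.54 and -0.11. Without WT R5 replicate 2 the WT change was 0.99 (adjusted p = 0.0231). Differences of the lines from WT at a stage were -0.13 to 0.20, and none passed.

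The galactinol synthases, which catalyse the first step given over to these sugars, were read at a few counts in most libraries, so counts per group of 3 libraries are given. Ratios of such counts are per effective library size with exact 95% intervals, which cover counting error only. An adjusted p beside a ratio is that of edgeR's test, whose own estimate of the fold can differ. For GolS1B in Wt from T2 to T5 edgeR's estimate was 54.2-fold, against a ratio of 82.2. In greenhouse Wt embryos GolS1B went from 1 count at T2 to 11 at T3, 50 at T4 and 76 at T5. As levels, the T4 libraries held 1.44, 0.705 and 0.846 and the T5 libraries 0.906, 1.17 and 0.963, against 0, 0.0313 and 0 at T2. T5 exceeded T2 by a ratio of 82.2 (interval 14.3 to 3291, adjusted p = 1.04e-05). The single count at T2 was in Wt T2 replicate 2, and without that library T2 held 0 counts and T5 was at least 16.6-fold higher, with 3 counts allowed per group. The step from T2 to T3 (ratio 15.8, interval 2.29 to 678.7, adjusted p = 0.0416) was lost in 5 of 6 fits without 1 library, and without Wt T2 replicate 2 T3 was at least 3.19-fold higher.

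The lines lacked most of that signal. At T4 GolS1B had 0 counts in the 3 G libraries and in the 3 R libraries, against 14, 18 and 18 counts in Wt. With 3 counts allowed per group of libraries, GolS1B was at least 19.6-fold lower in G (adjusted p = 1.4e-05) and at least 7.05-fold lower in R (adjusted p = 0.000494). These bounds were 11.96-fold without G T4 replicate 2 and 3.76-fold without R T4 replicate 1. At T5 it had 3, 0 and 2 counts in G and 0, 3 and 0 in R, against 22, 29 and 25 in Wt. The ratio of Wt to G was 13.5 (interval 5.53 to 42.7, adjusted p = 0.000193) and that of Wt to R was 10.6 (interval 3.51 to 52.8, adjusted p = 0.00282). The R result at T5 lost the threshold without R T5 replicate 1 (ratio 4.25, interval 1.40 to 21.1, adjusted p = 0.0725). At T2 and T3 R had 0 counts in all 6 libraries, G had 3 and 11, and no difference from Wt passed. Averaged over times GolS1B passed in G (adjusted p = 0.015) and in R (adjusted p = 0.00446). These averages include groups with 0 counts, G at T4 and R at T2, T3 and T4, where a log2 fold change has no firm size. Neither passed without Wt T2 replicate 2, which held the single Wt count at T2. That fit adds another group with 0 counts, so it cannot decide whether the averages rest on that library.

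GolS1A stayed low in Wt, with 21, 10, 18 and 52 counts at T2 to T5. T5 against T2 gave a log2 fold change of 1.44 in Wt (SE 0.57, adjusted p = 0.0571) and 1.70 in G (SE 0.59, adjusted p = 0.0324), the latter lost in 5 of 6 fits without 1 library. G held 44 counts at T5 and 34 of them were in replicate 1. R held 7, 2, 2 and 6 counts over the 4 times, and no difference of GolS1A between a line and Wt passed the threshold (over times 0.00 in G and -1.09 in R, adjusted p = 0.995 and 0.061). The value in R over times passed in 7 of 24 fits without 1 library, down to an adjusted p of 0.0193 without R T2 replicate 2. At T5 all R libraries lay below all Wt libraries (ratio of Wt to R 3.64, interval 1.57 to 10.4, adjusted p = 0.065). This difference passed without R T5 replicate 2 (ratio 7.34, interval 1.93 to 62.3, adjusted p = 0.046). The groups were also apart at T4 (-1.86, SE 1.11, adjusted p = 0.184) and overlapped at T2 and T3.

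In the field GolS1A was lower at R6 than at R5 in WT and W-1. In WT it went from 44, 57 and 16 counts at R5 to 0, 0 and 1 at R6 (ratio 19.1, interval 3.36 to 760.3, adjusted p = 0.016), a call lost without WT R6 replicate 3, when WT held 0 counts at R6 and too few reads there for any bound on the fold. Both other WT libraries at R6 were under 10 M counts. In W-1 it went from 1, 24 and 203 counts to 2, 2 and 0 (ratio 21.8, interval 8.38 to 80.5, adjusted p = 0.00128), and this rested on W-1 R5 replicate 3 (ratio 5.17, interval 1.78 to 20.4, adjusted p = 0.0688 without it). WD-1 held 0.645 ± 0.224 at R5 and 0.628 ± 0.122 at R6 (log2 fold change 0.07, 95% interval -1.54 to 1.68, adjusted p = 0.964). At R6 WD-1 held 15 counts against 1 in WT (ratio 13.9, interval 2.13 to 584, adjusted p = 0.205). Without WT R6 replicate 3, WT held 0 counts there and too few reads for any bound on this fold as well.

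GolS1B in the field rested on the same W-1 library. W-1 R5 replicate 3 held 863 counts, or 17.1 TMM-normalized CPM, while the other R5 libraries of W-1 held 4 and 6 counts and those of WT 23, 23 and 33. That library was also highest among the 27 for GolS1A, at 4.03, and for RS2, at 19.9, and it was not set apart for STS, at 2.52, or RS3, at 4.63. With 873 counts at R5 and 0 at R6, GolS1B was at least 111-fold lower at R6 in W-1 (adjusted p = 0.000326), with 3 counts allowed per group. Without that library W-1 held 10 counts at R5 and the bound was 2.75-fold, while the call held (adjusted p = 0.0204). The bound was 53.8-fold without W-1 R6 replicate 1, 62.2-fold without W-1 R6 replicate 2 and 192.6-fold without W-1 R5 replicate 2. The difference of W-1 from WT at R5 (ratio 15.2, interval 12.1 to 19.4) did not pass over libraries (adjusted p = 0.339), and passed without W-1 R5 replicate 2 (ratio 26.4, interval 21.0 to 33.7, adjusted p = 0.0251). Without W-1 R5 replicate 3 it was W-1 that was lower, by a ratio of WT to W-1 of 2.65 (interval 1.37 to 5.74). In WT it had 79 counts at R5 and 3 at R6 (ratio 4.30, interval 1.42 to 21.3, adjusted p = 0.377) and in WD-1 23 and 3 (ratio 2.00, interval 0.605 to 10.4, adjusted p = 0.648).

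**Figure D3:**
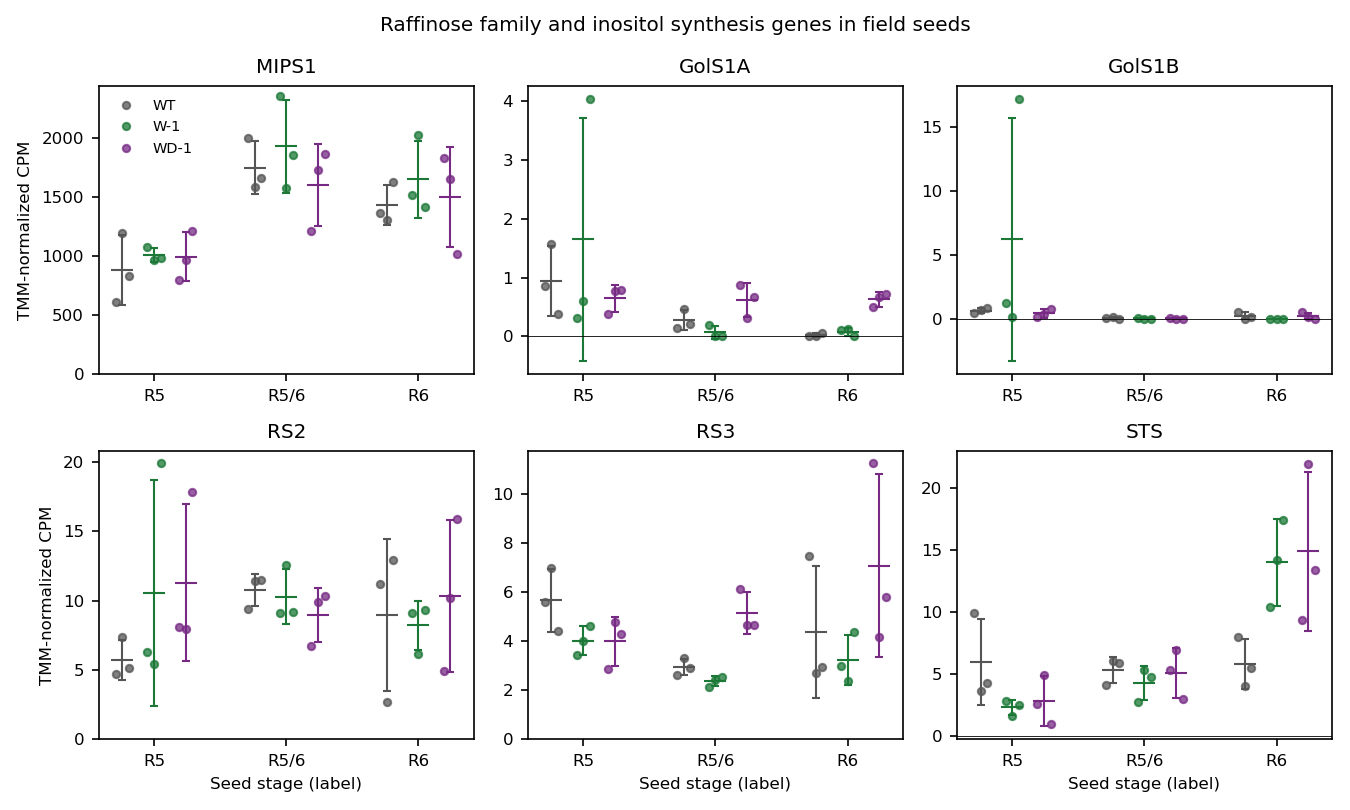
TMM-normalized CPM of the 6 genes in field seeds (vertical axis, one panel a gene) by labelled stage, with 3 libraries a group as points and mean ± SD as bars. STS at R6 lies between 9.33 and 21.9 in the lines and between 4.03 and 8.02 in WT, and a single W-1 library at R5 stands apart in the GolS1A, GolS1B and RS2 panels.

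The raffinose synthases differed from Wt in the greenhouse chiefly at T4, where both were lower in both lines. RS3, a second raffinose synthase whose loss adds to that of RS2 in soybean, was highest at T4 in Wt. Wt libraries held 3.64, 3.03 and 2.56 at T3, 11.6, 8.50 and 8.32 at T4, and 3.996, 3.07 and 4.58 at T5. The T4 libraries lay above all other Wt libraries. RS3 rose from T3 to T4 (2.95-fold, or 1.56 on the log2 scale, SE 0.24, adjusted p = 7.68e-05). The fall from T4 to T5 (-1.26, SE 0.22, adjusted p = 0.043) lost the threshold in each of the 6 fits without 1 library.

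At T4 the G libraries of RS3 held 1.79, 2.81 and 3.07 and the R libraries 3.40, 5.13 and 3.89, all below the lowest Wt value of 8.32. The log2 fold change was -1.85 in G (3.61-fold lower, SE 0.24, adjusted p = 1.71e-07) and -1.20 in R (2.29-fold lower, SE 0.25, adjusted p = 0.00031). By total counts the R value was -2.76 and with the 8 rows left out -0.76, both past the threshold. At T2, T3 and T5 neither line differed past the threshold, with values between -0.42 and 0.65. The highest was that of G at T2, where all G libraries lay above all Wt libraries (0.65, SE 0.22, adjusted p = 0.0548). It passed without Wt T2 replicate 2 (0.89, adjusted p = 0.0267). Over times RS3 was at -0.43 in G (SE 0.12, adjusted p = 0.00286) and -0.25 in R (SE 0.13, adjusted p = 0.101). The R value over times passed without R T3 replicate 2 (-0.38, adjusted p = 0.0146). In G itself RS3 fell from 5.62 ± 0.353 at T2 to 2.84 ± 0.530 at T5 (-0.95, SE 0.23, adjusted p = 0.00252). Its change from T2 to T5 differed from that of Wt by -1.07 (SE 0.33, adjusted p = 0.0395), a call lost in 9 of 12 fits without 1 library.

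RS2, the raffinose synthase whose mutants are used to lower these sugars, held 13.4 to 15.4 in Wt at T3 and 19.2, 17.6 and 20.1 at T4. G held 12.5, 11.1 and 9.58 at T4 and R held 11.8, 15.2 and 6.93, and both lines lay below Wt. The log2 fold change was -0.78 in G (SE 0.19, adjusted p = 0.00208) and -0.73 in R (SE 0.20, adjusted p = 0.00424). Without R T4 replicate 3, the lowest library at 6.93, the R value was -0.46 (adjusted p = 0.0738). With total counts and the 8 rows left out, R was at -0.28 (adjusted p = 0.251) and G at -0.54 (adjusted p = 0.0252). Total counts of all rows gave -2.26 in R (adjusted p = 1.8e-05) and -0.77 in G (adjusted p = 0.312). At T5 RS2 was 8.95, 12.7 and 16.5 in G against 18.6, 20.1 and 15.8 in Wt, groups that overlapped (-0.52, SE 0.19, adjusted p = 0.0324), and the call was lost in 4 of 6 fits without 1 library, among them that without G T5 replicate 2 (-0.52, adjusted p = 0.0694). All R libraries lay below all Wt libraries at T5 as well (-0.40, SE 0.20, adjusted p = 0.118). Over times RS2 was at -0.29 in G (SE 0.09, adjusted p = 0.0114) and -0.21 in R (SE 0.10, adjusted p = 0.0721). The R value over times passed without R T2 replicate 3 (-0.25, adjusted p = 0.0348) and without R T4 replicate 2 (-0.25, adjusted p = 0.0257).

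In field seeds neither raffinose synthase passed the threshold with TMM, between R5 and R6 or between genotypes. By total counts RS3 was lower at R6 than at R5 in WT (-1.45, adjusted p = 0.00474) and in W-1 (-1.67, adjusted p = 0.000714), as was RS2 in W-1 (-1.62, adjusted p = 0.00181). Without WD-1 R6 replicate 2, RS3 was higher at R6 in WD-1 (1.08, adjusted p = 0.04). RS2 at R5 was 4.68, 7.37 and 5.15 in WT, 6.27, 5.42 and 19.9 for W-1, and 8.09, 7.94 and 17.8 for WD-1, so that 1 library of each line stood far above the other two. RS3 at R5/6 was 2.63, 3.30 and 2.92 in WT and 6.12, 4.67 and 4.66 in WD-1, which did not overlap (log2 fold change 0.83, SE 0.31, adjusted p = 0.204). The mean over stages of RS3 was higher in WD-1 than in W-1 by 0.76 (SE 0.21, adjusted p = 0.106). By total counts it passed (0.98, adjusted p = 0.0284), as it did without WD-1 R6 replicate 2 (0.88, adjusted p = 0.0363).

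STS makes stachyose, the most abundant sugar of this family in mature soybean seed, and in the greenhouse it was higher in both lines at all 4 times. The 12 Wt libraries held 3.18 to 4.95 TMM-normalized CPM and the level barely moved over time, from 4.37 ± 0.668 at T2 to 4.16 ± 0.331 at T5.

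At T2, STS was 4.52, 4.95 and 3.64 in Wt, 8.31, 7.89 and 7.25 in G, and 10.98, 9.43 and 7.37 in R. At T3 it was 4.42, 3.68 and 3.18 in Wt, 10.96, 11.2 and 13.8 in G, and 6.51, 8.32 and 9.23 in R. Every G and R library lay above every Wt library at both times. The T4 values were 3.49, 4.51 and 3.57 in Wt, 9.16, 8.80 and 7.86 in G, and 8.06, 7.76 and 8.79 in R. The T5 values were 4.37, 4.33 and 3.78 in Wt, 6.99, 6.09 and 6.90 in G, and 10.4, 11.6 and 13.4 in R. The groups did not overlap in any of the 8 comparisons of a line with Wt at a time, and G T5 replicate 2, without transgene counts, held the lowest G value, 6.09.

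All 8 of these comparisons passed the threshold of 0.05. In G the log2 fold change of STS was 0.84 (SE 0.15, adjusted p = 0.000149) at T2, 1.63 (SE 0.16, adjusted p = 5.99e-10) at T3, 1.14 (SE 0.16, adjusted p = 8.85e-07) at T4 and 0.69 (SE 0.16, adjusted p = 0.000714) at T5. In R it was 1.05 (SE 0.16, adjusted p = 1.29e-05), 1.08 (SE 0.18, adjusted p = 1.89e-05), 1.06 (SE 0.17, adjusted p = 7.31e-06) and 1.46 (SE 0.16, adjusted p = 1.06e-08). Averaged over times, STS was 2.11-fold higher in G (1.08 on the log2 scale, SE 0.08, adjusted p = 9.46e-14) and 2.24-fold higher in R (1.16, SE 0.08, adjusted p = 8.69e-14). Both lines are set against the same Wt libraries, so these results are not independent of each other. Direct comparison of R with G gave a difference of 0.09 (95% interval -0.07 to 0.24, adjusted p = 0.431).

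The sign in R depended on the scaling and that in G did not. By total counts STS in R was at -0.04 over times (adjusted p = 0.829), and with the 8 rows left out as well it was at 1.32 (adjusted p = 7.53e-14). In G, total counts gave 1.21 over times (adjusted p = 1.72e-07), while T2 (1.14, adjusted p = 0.0527) and T5 (0.97, adjusted p = 0.0514) lost the threshold.

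**Figure D4:**
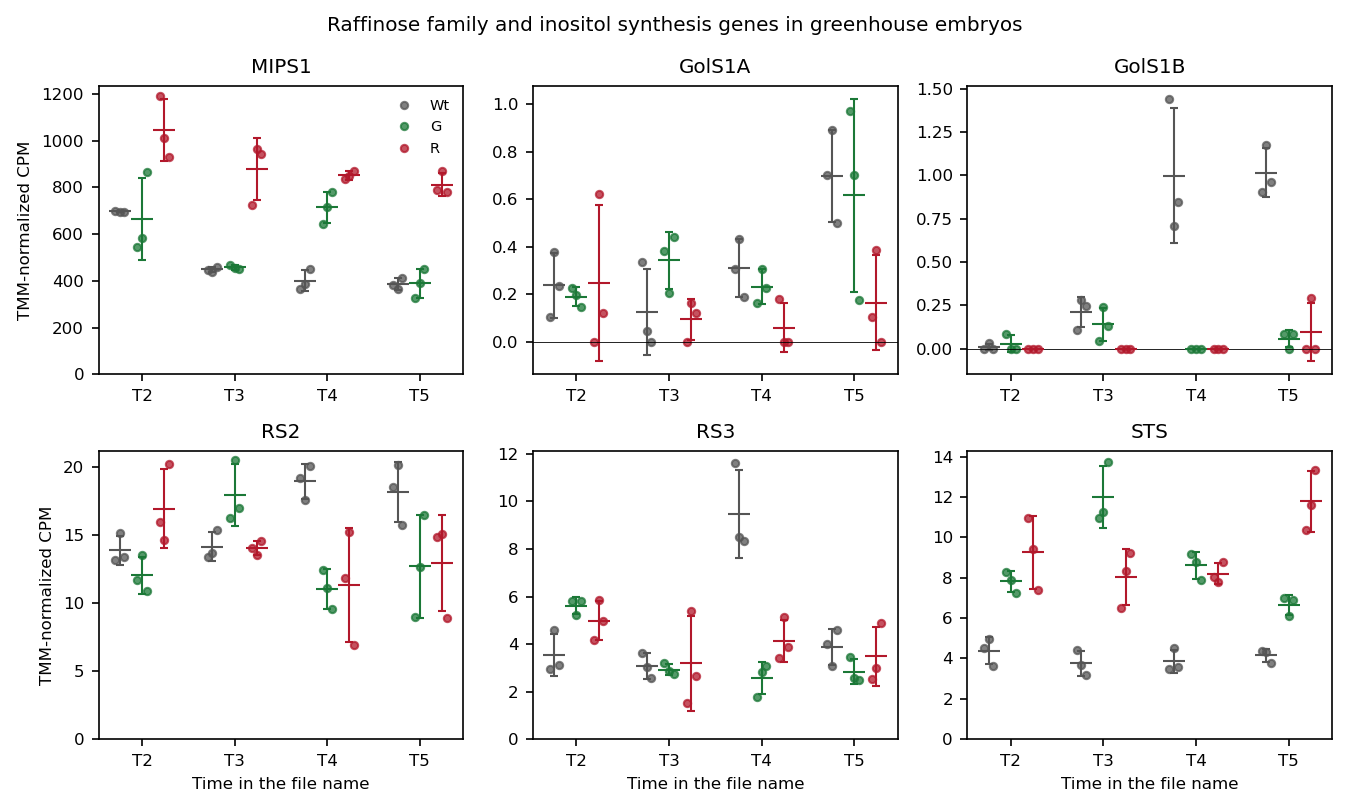
TMM-normalized CPM of the 6 genes in greenhouse embryos (vertical axis, one panel a gene) by the time in the table's name, with 3 libraries a group as points and mean ± SD as bars. STS of G and R lies above Wt at every time, RS3 and GolS1B of Wt stand above both lines at T4, and MIPS1 of R lies above Wt at every time on this scale.

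In field seeds STS rose between R5 and R6 in both lines and did not pass the test in WT. WT held 9.92, 3.63 and 4.32 at R5 and 8.02, 4.03 and 5.49 at R6. WT R6 replicates 1 and 2 had 2.51 M and 1.17 M total counts, against 27.2 M in replicate 3. The WT group held 119 STS counts at R6, so the levels of replicates 1 and 2 rest on few reads. W-1 went from 2.82, 1.65 and 2.52 to 10.4, 14.2 and 17.4, and WD-1 from 2.58, 4.96 and 0.98 to 9.33, 21.9 and 13.4. The R5 and R6 libraries did not overlap in either line and overlapped in WT. At R5/6 the means were 5.36 ± 1.03 in WT, 4.28 ± 1.34 for W-1 and 5.12 ± 2.01 for WD-1, so the 3 genotypes were close together in mid course.

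From R5 to R6 the log2 fold change of STS was 2.61 in W-1 (6.12-fold, SE 0.45, adjusted p = 4.77e-05), 2.31 in WD-1 (4.96-fold, SE 0.42, adjusted p = 0.000136) and 0.00 in WT (SE 0.45, 95% interval -0.89 to 0.89, adjusted p = 0.999). The difference of the 2 stage effects between W-1 and WT was 2.62 (SE 0.64, adjusted p = 0.0285), and that between WD-1 and WT was 2.31 (SE 0.62, adjusted p = 0.0646). The first lost the threshold in 7 of the 12 fits without 1 library, where it ranged from 2.03 to 2.87. The second passed by DESeq2 (2.30, adjusted p = 0.0331), by total counts (2.56, adjusted p = 0.0473) and in 3 of the fits without 1 library. By total counts the change from R5 to R6 was 1.39 in W-1, 1.54 in WD-1 and -1.02 in WT, where the median of all genes shifted by -1.20, -0.73 and -1.02. WT R5 replicate 1, at 9.92, was the highest R5 library, and without it the W-1 difference was 2.03 (adjusted p = 0.103).

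At single field stages no difference of STS passed the threshold. At R6 every W-1 and WD-1 library lay above every WT library, with log2 fold changes of 1.18 (SE 0.47, adjusted p = 0.177) and 1.39 (SE 0.47, adjusted p = 0.123). WT R6 replicates 1 and 2, of 2.51 M and 1.17 M total counts, rest on few STS reads. At R5 the values pointed the other way, at -1.44 in W-1 (SE 0.42, adjusted p = 0.384) and -0.92 in WD-1 (SE 0.40, adjusted p = 0.622). Every W-1 library at R5 lay below every WT library, while WD-1 and WT overlapped. For W-1 the unadjusted edgeR p was 0.0022 at R5 and 0.0198 at R6.

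With the greenhouse libraries grouped as labelled, the same counts gave other results. Averaged over days, 0 of 6 differed between WD-1 and WT (3.38% of all genes) and 2 of 6 between WD-2 and WT (3.7%). The latter were STS (log2 fold change 0.48, SE 0.08, adjusted p = 0.000335) and RS3 (0.45, SE 0.13, adjusted p = 0.0477). Neither comparison could decide on GolS1B (SE 1060 and 3569), since some labelled groups held 0 counts of it. DESeq2 called 0 for WD-1, and the unadjusted p was under 0.05 for MIPS1 alone, at -0.19 (SE 0.08, adjusted p = 0.199). Since AtWRI1 goes against the label in 13 of these libraries, no direction is drawn from them.

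The genes whose group means most resembled each member were found over the 9 field groups and, separately, the 12 greenhouse groups, by Pearson's r of log2(TMM-normalized CPM + 1). The points of each r share their libraries and scaling. STS was closest to GLYMA_06G165500 (r of 0.94 in the field and 0.95 in the greenhouse), MIPS1 to GLYMA_19G162000 (0.91 and 0.94) and GolS1B to GLYMA_07G066500 (0.88 and 0.84). RS2 was closest to GLYMA_13G108100 (0.86 and 0.76), RS3 to GLYMA_01G080500 (0.79 and 0.77) and GolS1A to GLYMA_02G293700 (0.75 and 0.76). With a pseudocount of 0.1 the closest gene was another one for STS and GolS1A. Each was the closest of 15566 or 15567 genes compared, and no chance level was computed. The highest field group of GolS1B, W-1 at R5, held 873 counts, and 10 without replicate 3. The field r of GolS1B without that library was not computed.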

How the data were processed

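RNA sequencing gave 63 libraries, 27 from field seeds and 36 from greenhouse embryos. The authors deposited estimated counts, 1 value a gene and not normalized, per the file headers. R 3.6.3, sleuth 0.30.0, kallisto 0.43.1 and FastQC 0.11.5 are listed, without roles, per the submitters' processing notes; for the build and annotation nothing is given in the sources used here. Estimated counts can divide reads between near-identical copies, which the galactinol synthases may have, so single genes may hold reads of a copy. All values were rounded to whole numbers. A row without a gene name held at most 4 counts and was left out.

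Identifiers matched 0 of 59048 genes of the reference table, so gene names are those given with the 6 members. No sequences, gene lengths, pathway list or tissue markers could be tied to identifiers.

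Counts were tested with edgeR 4.0.16 in R 4.3.3 (filterByExpr, TMM, quasi-likelihood F-test, 2-sided, Benjamini-Hochberg over all genes tested, threshold 0.05). 1 model held the 9 field groups (38914 genes, biological coefficient of variation 0.284) and 1 the 12 greenhouse groups of the table names (34548 genes, 0.168), which replace the labelled groups because the transgene counts follow the names; another model used the labelled groups. All 35 comparisons came from these models. The SE is the absolute log2 fold change divided by the square root of F. TMM factors ran from 0.578 to 1.55 in the field and 0.344 to 2.04 in the greenhouse. The code was tested on simulated counts with known changes, where most of the smaller changes in the field were not called. Alternatives were DESeq2 1.42.0, total counts, no filter, a replicate block, libraries over 10 M counts (M, units of 1e6) and each library left out; total counts without 8 leading rows were added after seeing the data. The named genes are the 6 members, both transgenes and, for each member, the gene with the highest lower of its field and greenhouse r among genes with a mean of at least 5 CPM. The members, lists and tests were chosen with earlier results of these data known. Other steps used Python 3.11.15, numpy 2.4.6, pandas 2.3.3, scipy 1.17.1 and matplotlib 3.10.9.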

Additional observations from a re-analysis of the deposited data

Results flagged for a closer look

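The effect of W-1 on STS differed between field stages: the R6 effect minus the R5 effect was 2.62 on the log2 scale (SE 0.64, adjusted p = 0.0285). STS was lower in W-1 than in WT in R5 means (2.33 ± 0.608 against 5.96 ± 3.45) and higher at R6 (14.0 ± 3.49 against 5.85 ± 2.02). The call was lost in 7 of 12 fits without 1 library.

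The effect of G on RS3 differed between greenhouse times: the T5 effect minus the T2 effect was -1.07 (SE 0.33, adjusted p = 0.0395). RS3 stood at 5.62 ± 0.353 in G and 3.55 ± 0.892 in Wt at T2, and at 2.84 ± 0.530 and 3.89 ± 0.762 at T5. The call was lost in 9 of 12 fits without 1 library, among them that without G T5 replicate 2, the library with 0 transgene counts (-1.02, adjusted p = 0.0769).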

How the results depend on the processing

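Of 49 member results past the threshold, 48 kept their direction and their side of it by DESeq2, 47 without the filter and 47 with the replicate block; of 456 fits without 1 library, 395 did and none turned. By total counts 22 of 49 did, 18 lost the threshold and 9 turned; with the 8 rows also left out, 34 of 41 did and 7 lost it. The results that turned by total counts were MIPS1 in R against Wt over times (-0.25), at T2 (-0.98), T3 (-0.01) and T4 (-0.45), MIPS1 in R against G (-0.59), and STS in R against Wt over times (-0.04), at T2 (-0.51), T3 (-0.01) and T4 (-0.46). Total counts moved the median of all genes by -0.61 to -1.52 at single times of R against Wt, and by -1.02, -1.20 and -0.73 from R5 to R6 in WT, W-1 and WD-1.

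Calls over all genes moved as well, so the number of the 6 is not read as a result about the members. By total counts, 22177 and 25627 of all 38914 genes passed for R6 against R5 in WT and W-1. For R against G, 33517 of all 34548 genes did. The number of the 6 past the threshold moved by over 1.5 times, or to or from 0, as follows. By DESeq2 it was 2 for R6 against R5 in WT, 1 for the WD-1 stage difference and 1 for R T5 against T2. By total counts it was 2 and 5 for R6 against R5 in WT and W-1, 0 and 1 for the W-1 and WD-1 stage differences, 1 for WD-1 against W-1, 0 for Wt T3 against T2 and T5 against T4, 2 for G over times, 0, 3 and 1 for G at T2, T4 and T5, 0 for the G time difference, 5 for R against G and 0 for WD-2 as labelled. Without the filter it was 1 for the WD-1 stage difference, 2 for G at T2 and 1 for R at T2. With the 8 rows left out it was 3 for R T5 against T2, 1 for Wt T3 against T2, 0 for Wt T5 against T4, 2 for G at T2 and 0 for the G time difference.

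Among same-numbered replicates, 22 of 108 field pairs and 70 of 198 greenhouse pairs had a correlation over 0.1. Their correlations ran from -0.309 to 0.485 in the field and from -0.604 to 0.766 in the greenhouse. The field and greenhouse medians were -0.0112 and 0.0214, against -0.014 and -0.0186 for pairs with other numbers. Pairs with other numbers over 0.1 were not counted, so the counts cannot decide whether the replicate numbers pair samples. With the replicate block the number was 1 for Wt T3 against T2 and 1 for WD-2 as labelled, and it moved in no other comparison.

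Without 1 library it ranged from 0 to 2 for R6 against R5 in WT and from 1 to 2 in WD-1, from 0 to 1 for W-1 at R5, WD-1 against W-1, both stage differences, R T5 against T2 and the G time difference, from 1 to 2 for Wt T3 against T2, G at T2, R at T2 and R against G, from 3 to 5 for G over times, and was 0 for Wt T5 against T4. Smaller moves were from 2 to 4 for R over times and R at T5, and from 4 to 5 for R at T4. The number ranged from 2 to 3 for G at T5, G T5 against T2 and R6 against R5 in W-1. Leaving libraries out of the labelled groups was not run.

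Counts over all genes moved by over 1.5 times by DESeq2 for W-1 at R5 (29 against 15) and R5/6 (122 against 48) and WD-1 at R5 (130 against 69), and without the filter for W-1 at R5 (48) and Wt T5 against T4 (8 against 3). With libraries over 10 M counts WD-1 gave 9 at R5 and 1235 at R5/6, against 69 and 662. Total counts moved them in 24 comparisons, for example G over times (7878 against 16068), R against G (33517 against 12961) and R6 against R5 in WT (22177 against 12827), and lowered the share of calls that were higher in R over times from 46% to 3.48%. Without 1 library they moved by over 1.5 times, from 8 to 101 for W-1 at R5 (without W-1 replicates 3 and 2) and from 12 to 232 for WD-1 at R5 (without WT replicates 1 and 2). The lowest counts elsewhere were 88 for WD-1 at R5/6 (without WT R5/6 replicate 3) and 19 against 48 for W-1 at R5/6 (without WT R5/6 replicate 2). Without WT R6 replicate 3 they were 466 against 1260 for WD-1 at R6, 186 against 473 for its stage difference, 702 against 1185 for WD-1 over stages and 7354 against 12827 for R6 against R5 in WT. Without W-1 R6 replicate 2 they were 916 against 1728 for W-1 at R6 and 355 against 659 for its stage difference. The count was 8214 against 13861 for R6 against R5 in WD-1 (without WD-1 R6 replicate 2) and 140 against 216 for WD-1 against W-1 (without W-1 R5/6 replicate 1). In the greenhouse the lowest counts were 2414 against 4258 for Wt T3 against T2 (without Wt T3 replicate 2), 310 against 731 for Wt T4 against T3 (without Wt T3 replicate 1), 1 against 3 for Wt T5 against T4, 2230 against 3503 for G at T2 (without G T2 replicate 2), 4337 against 6901 for R at T2 (without R T2 replicate 2), 6476 against 10174 for R at T3 (without R T3 replicate 2) and 2876 against 5046 for R T5 against T2 (without R T5 replicate 1). Depth limits the galactinol synthases, which were read at few counts.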
